A study of Homo sapiens with 6 samples.

Results

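Hepatocyte lineage transcription factors are DNA-binding proteins that switch on liver genes, and 8 of them were followed here: HNF4A, FOXA1, FOXA2, FOXA3, CEBPA, NR1H4, NR5A2 and ONECUT1. They were taken by name from the count and FPKM tables, with Ensembl identifiers mapped to gene symbols. All 8 were found among the 23406 features of each table, and all 8 were among the 14071 features with enough counts to be tested. The cells were Hep-3B, an established epithelial line from a human hepatocellular carcinoma. The shControl group (genotype WT in the labels) and the shNXN group (NXN knockdown) were both transduced with lentivirus and kept in puromycin at 2 µg/mL for selection. Each group had 3 RNA-seq libraries, taken on days 7, 9 and 11, so each day was represented by 1 library per group. The labels count these days in one place from transfection and in another from the end of selection. They name 1 shRNA condition without saying which hairpin it was, and they do not say whether the days were separate cultures, so p-values measured only the spread between these libraries.

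In the liver these proteins form a network in which several factors bind near their own genes and near the genes of others. HNF4A is an orphan nuclear receptor that drives apolipoprotein, coagulation factor and metabolic genes. The FOXA proteins are pioneer factors that open closed chromatin at liver enhancers, CEBPA is a leucine zipper protein of the differentiated hepatocyte, NR1H4 (FXR) is the bile acid receptor, NR5A2 (LRH-1) acts on bile acid and cholesterol genes, and ONECUT1 (HNF6) is a cut homeodomain protein needed in liver and bile duct development. Hepatoma lines keep some of this programme and lose other parts of it. The series compared knockdown of NXN, a redox enzyme related to thioredoxin, with control in such cells, and the comparisons below ask at what level each factor was transcribed, whether it differed between shNXN and shControl, and whether it changed with day.

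The libraries held between 15349382 and 16332589 estimated counts. NXN, the target of the shRNA, fell by 1.83 on the log2 scale in shNXN (SE 0.16, edgeR's quasi-likelihood test, Benjamini-Hochberg adjusted p = 0.0378), from 181, 138 and 143 CPM (counts scaled to library size) in shControl on days 7, 9 and 11 to 42.7, 47.5 and 39.5 CPM in shNXN. The 10 hepatocyte markers were all present, with a summed FPKM (fragments scaled to transcript length and library depth) of 8039 to 16940 in shControl and 4189 to 9494 in shNXN. The 7 biliary markers in the table summed to 665 to 1122 FPKM in shControl and 807 to 953 in shNXN. Of the other cell types, the 7 stellate and fibroblast markers summed to at most 4.52 FPKM in any library, and 2 of the 4 endothelial markers were at 0 throughout. The 6 immune markers summed to 131 to 172 FPKM in shControl and 177 to 296 in shNXN, nearly all of it LYZ and CD68, with CD3E at 0. The part of these markers in the results below was not tested. A rank correlation of 0.79 (Spearman's rho, 12740 features, a description across genes) tied the fold change of a feature to how GC-rich its transcript was, and values corrected for this for the group difference are given for each factor.

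CEBPA was the most abundant of the factors per unit length, with a mean of 259 FPKM over the 6 libraries, and NR1H4 the least abundant, with 6.13 FPKM. Between them stood HNF4A at 121 FPKM, FOXA1 at 85.4, FOXA2 at 38.4, NR5A2 at 32.5, FOXA3 at 27.8 and ONECUT1 at 23.1. Among features with a gene symbol, these means lay from the 53.0 percentile for NR1H4 to the 98.0 percentile for CEBPA. Library by library, CEBPA was above HNF4A, HNF4A above FOXA1, and FOXA1 above FOXA2 in 6 of 6 libraries, and ONECUT1 was above NR1H4 in 6 of 6. FOXA2 exceeded NR5A2 in 4 libraries, NR5A2 exceeded FOXA3 in 3, and FOXA3 exceeded ONECUT1 in 4. FOXA1 and FOXA2 were the only neighbours in this order whose ranges over the libraries did not overlap. From FOXA2 to ONECUT1, neighbouring places could not be told apart by their spread, though FOXA2 was above ONECUT1 in every library.

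**Figure D1:**
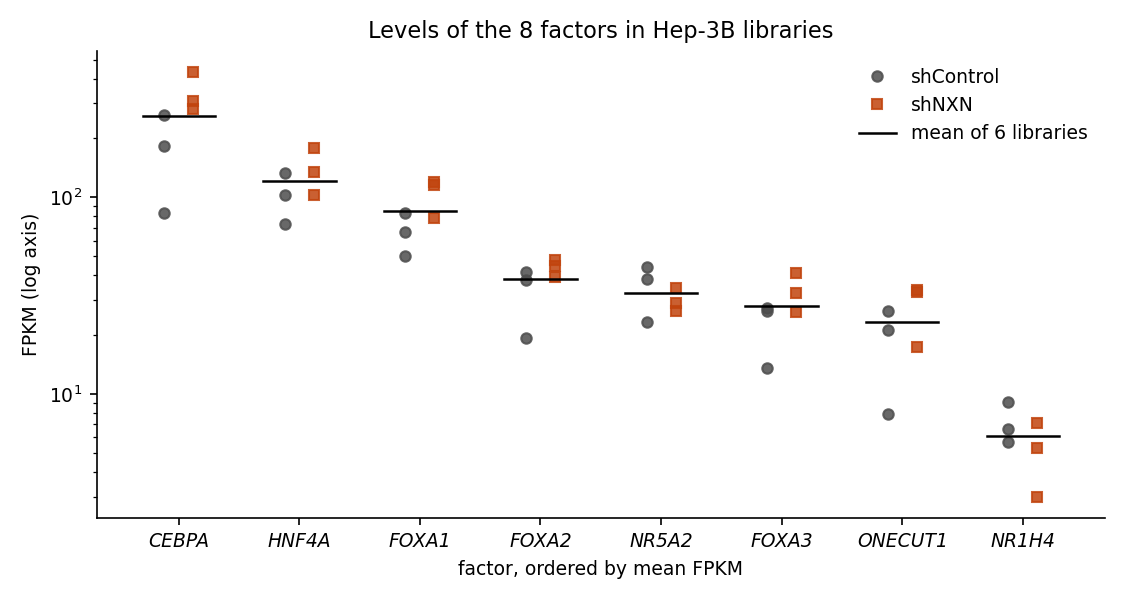
FPKM of each factor on a log axis, ordered by the mean over 6 libraries (black line), with shControl libraries as grey circles and shNXN libraries as red squares. CEBPA leads at a mean of 259 FPKM and NR1H4 is last at 6.13, while the points of FOXA2, NR5A2, FOXA3 and ONECUT1 lie across each other.

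HNF4A (ENSG00000101076, chr20:44355700-44434596, + strand, GRCh38 with GENCODE 29) is the orphan nuclear receptor at the centre of the network. It was measured at 302 CPM on day 7, 391 on day 9 and 219 on day 11 in shControl. In shNXN it was measured at 396, 533 and 312 CPM on the same days. Both groups peaked on day 9 and were lowest on day 11, shNXN stood above shControl on each day by 0.39, 0.45 and 0.51 on the log2 scale, and the ranges of the groups overlapped. Without a term for day the fold change was 0.44 on the log2 scale (SE 0.27, edgeR's quasi-likelihood test, adjusted p = 0.271). With the day as a block, which compares the groups within each day, it was 0.45 (SE 0.09, adjusted p = 0.0317), and with the block and a correction for transcript GC content it was 0.18 (SE 0.10, adjusted p = 0.326).

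The gene-level counts do not separate the alternative starts of HNF4A. RefSeq lists 2 promoters for it, one at the upstream start, used in pancreatic islets and gut, and one at the downstream start, used in adult hepatocytes. Their 250 bases before the start, with those of CEBPA and of the downstream start of NR5A2, are shown because HNF4A and CEBPA were the most abundant factors and NR5A2 was the one that stood lower in shNXN on each day. They come from RefSeq on GRCh38.p14 and run 5′ to 3′ on the strand of the gene. Capitals mark matches on either strand to short core motifs of the factors themselves and of Snail. The letters searched for ONECUT proteins were ATCAAT. For the FOXA family either of a pair of forms counted, the first being TGTTTAC and the other being TGTTTGC. Those of the nuclear receptor HNF4 were CAAAGTC, those of C/EBP proteins were TTGCNNAA, and the E-box bound by Snail was CAGGTG.
HNF4A, upstream start, chr20:44355449-44355698, + strand: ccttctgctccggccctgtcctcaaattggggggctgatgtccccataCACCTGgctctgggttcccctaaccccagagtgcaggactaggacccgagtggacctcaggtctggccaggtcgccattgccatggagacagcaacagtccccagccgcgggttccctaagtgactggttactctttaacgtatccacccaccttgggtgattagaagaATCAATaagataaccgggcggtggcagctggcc
HNF4A, downstream start, chr20:44400989-44401238, + strand: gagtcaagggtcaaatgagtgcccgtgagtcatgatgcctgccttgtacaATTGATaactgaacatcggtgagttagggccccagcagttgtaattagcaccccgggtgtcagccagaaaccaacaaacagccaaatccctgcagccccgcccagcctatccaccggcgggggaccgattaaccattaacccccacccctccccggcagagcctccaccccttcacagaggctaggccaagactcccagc
CEBPA, chr19:33302535-33302784, - strand: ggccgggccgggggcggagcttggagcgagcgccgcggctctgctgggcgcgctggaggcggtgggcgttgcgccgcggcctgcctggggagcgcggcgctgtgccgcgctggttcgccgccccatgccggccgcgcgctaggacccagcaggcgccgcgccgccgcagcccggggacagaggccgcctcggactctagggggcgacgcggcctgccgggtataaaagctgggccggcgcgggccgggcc
NR5A2, downstream start, chr1:200042341-200042590, + strand: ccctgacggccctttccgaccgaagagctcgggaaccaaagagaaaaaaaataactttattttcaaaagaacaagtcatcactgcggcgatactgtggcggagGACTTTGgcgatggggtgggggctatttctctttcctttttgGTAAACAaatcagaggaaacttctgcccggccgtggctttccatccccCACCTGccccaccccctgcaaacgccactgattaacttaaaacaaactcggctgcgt
Both HNF4A windows held the ONECUT letters, the upstream one at -33 and the downstream one at -200 from the start. The upstream window also held the E-box at -202. The downstream NR5A2 window held the HNF4, FOXA and E-box letters, at -147, -105 and -57. The window of the upstream NR5A2 start, chr1:200027460-200027709, is not shown and held none of the letters searched. The CEBPA window, with a GC content of 81.2% against a median of 58% over all promoters, held none of them.

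Across 35116 RefSeq promoter windows of the same length, the ONECUT letters were in 5.58%, TGTTTAC in 2.98%, TGTTTGC in 3.23%, the HNF4 letters in 2.91%, the C/EBP letters in 9.05% and the E-box in 17.5%. Of the 9 windows of the factors, that of FOXA1 also held the letters TGTTTGC and the E-box. None of the 9 held the C/EBP letters. The capitals in one window did not overlap one another, and a match describes letters and not binding.

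NR1H4 (ENSG00000012504, chr12:100473708-100564413, + strand), the bile acid receptor, had the fewest reads, 70 to 200 counts a library. It was measured at 9.64, 12.3 and 7.30 CPM in shControl on days 7, 9 and 11 and at 7.97, 4.29 and 10.2 CPM in shNXN. shNXN was lower on days 7 and 9 and higher on day 11, and the groups overlapped. The fold change was -0.38 on the log2 scale (SE 0.37, edgeR's quasi-likelihood test, adjusted p = 0.481) and turned to 0.42 with the GC correction, so no direction could be given for NR1H4.

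NR5A2 (ENSG00000116833, chr1:200027602-200177424, + strand), the nuclear receptor of bile acid and cholesterol genes, was measured at 106, 99.6 and 81.0 CPM in shControl and at 73.1, 65.2 and 72.1 CPM in shNXN. Every shNXN library lay below every shControl library, as for 21.5% of all tested features, and shNXN was lower on each day, as for 32.6% of them. The fold change was -0.45 (SE 0.15, edgeR's quasi-likelihood test, adjusted p = 0.103), -0.44 with the day block (adjusted p = 0.0637) and -0.57 without both day 11 libraries (adjusted p = 0.0201), a fit that called 31.8% of all features tested in it. The direction did not hold under the GC correction, which gave 0.52 without and 0.51 with the day block (adjusted p = 0.0769 in the latter). NR5A2 has a GC content of 40.0%, and the 2194 tested features within 2 percentage points of it had a median fold change of -0.88. In the FPKM table NR5A2 read 38.2, 44.0 and 23.3 in shControl and 34.4, 28.9 and 26.4 in shNXN, so there the groups overlapped.

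FOXA1 (ENSG00000129514, chr14:37589984-37596059, - strand), the most abundant pioneer factor, was measured at 152, 102 and 107 CPM in shControl and at 145, 150 and 122 CPM in shNXN. The groups overlapped, with shNXN slightly lower on day 7 and higher on days 9 and 11. The fold change was 0.21 (SE 0.19, edgeR's quasi-likelihood test, adjusted p = 0.445) and 0.00 to 2 decimals with the GC correction. In FPKM the groups lay further apart, at 83.3, 66.1 and 50.3 in shControl and 119, 115 and 78.7 in shNXN, and limma on log2(FPKM + 1) gave 0.65 (SE 0.25, adjusted p = 0.160). The transcript length that the ratio of counts to FPKM implies ran from 1257 to 2123 bases between libraries for FOXA1 and from 2182 to 3474 for NR5A2, against 2333 to 2384 for CEBPA, so the 2 tables do not give the same fold change for FOXA1 and NR5A2.

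FOXA2 (ENSG00000125798, chr20:22581005-22585455, - strand) was measured at 89.8, 82.1 and 40.9 CPM in shControl and at 92.4, 99.8 and 86.6 CPM in shNXN. It was nearly equal on day 7, with a log2 difference of 0.04, and stood 1.08 apart on day 11, where the shControl library was low. The fold change was 0.39 (SE 0.28, edgeR's quasi-likelihood test, adjusted p = 0.353), 0.46 with the day block (adjusted p = 0.157), 0.11 with the block and the GC correction (adjusted p = 0.823), and 0.17 without the shControl library of day 11. FOXA3 (ENSG00000170608, chr19:45863989-45873797, + strand) was measured at 23.5, 47.3 and 44.6 CPM in shControl and at 43.2, 68.6 and 56.7 CPM in shNXN. It differed from FOXA2 in being lowest on day 7 in both groups, with the group difference narrowing from 0.88 on day 7 to 0.54 and 0.35 on days 9 and 11. Its fold change was 0.55 (SE 0.30, edgeR's quasi-likelihood test, adjusted p = 0.240), 0.59 with the day block (SE 0.15, adjusted p = 0.0475) and 0.21 with the block and the GC correction (SE 0.14, adjusted p = 0.447), and it ran from 0.32 without the shControl library of day 7 to 0.74 without that of day 9.

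CEBPA (ENSG00000245848, chr19:33299934-33302564, - strand), a gene without introns that encodes the leucine zipper factor, showed the widest CPM range of the 8, 5.12-fold between its highest and lowest library. It was measured at 436, 628 and 195 CPM in shControl and at 706, 998 and 683 CPM in shNXN. Every shNXN library lay above every shControl library, as for 19.0% of all tested features. The means were 420 ± 217 CPM in shControl and 795 ± 176 CPM in shNXN (SD, n = 3 libraries each), a ratio of 1.89, and the two-sided exact permutation test gave p = 0.1, the smallest that 3 libraries against 3 allow. The fold change was 0.92 (SE 0.40, edgeR's quasi-likelihood test, adjusted p = 0.154), 1.05 with the day block (SE 0.25, adjusted p = 0.0418), and 0.62 with the block and the GC correction (SE 0.18, adjusted p = 0.136). Within days the log2 difference was 0.69, 0.67 and 1.81, and the fold change was 0.64 without the shControl library of day 11.

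ONECUT1 (ENSG00000169856, chr15:52756989-52791078, - strand), the cut homeodomain factor, was measured at 35.1, 28.2 and 10.4 CPM in shControl and at 44.1, 43.1 and 24.1 CPM in shNXN. The day 11 library was the lowest in both groups, and shNXN was higher by 0.33, 0.61 and 1.21 on days 7, 9 and 11. The fold change was 0.59 (SE 0.45, edgeR's quasi-likelihood test, adjusted p = 0.371), 0.70 with the day block (adjusted p = 0.0595) and 0.35 with the block and the GC correction (adjusted p = 0.394). It was 0.30 without the shControl library of day 11 and 0.99 without that of day 7.

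**Figure D2:**
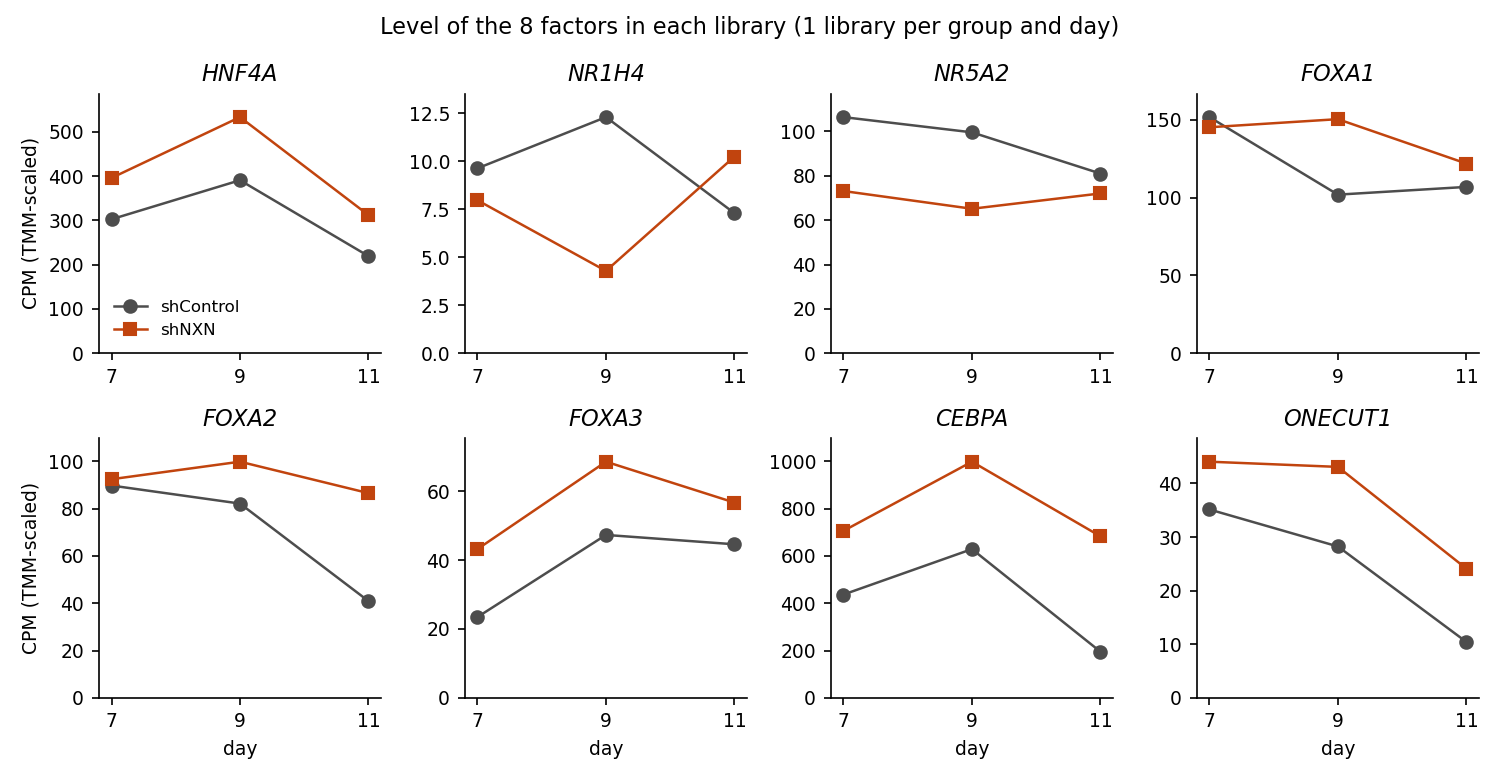
CPM of each factor by day, with the y axis from 0, for shControl (grey circles) and shNXN (red squares), each point 1 library. HNF4A, FOXA2, FOXA3, CEBPA and ONECUT1 were higher in shNXN on each of the 3 days and NR5A2 lower on each, while the lines of FOXA1 and NR1H4 cross.

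Between shNXN and shControl, 0 of the 8 factors passed an adjusted p of 0.05 in edgeR's quasi-likelihood test without the block, against 3.39% of all tested features (477). At an unadjusted p under 0.05, 1 of the 8 passed, NR5A2, beside 4625 of the 14071 tested features. DESeq2 and limma on log2(FPKM + 1) also called 0 of the 8, against 23.5% and 0.828% of the features they tested. Each had 2 of the 8 at an unadjusted p under 0.05, beside 5281 of 14071 features in DESeq2 and 4271 of 16188 in limma. With the day block, 3 of the 8 were higher in shNXN, HNF4A, FOXA3 and CEBPA, where 6.28% of all tested features were called higher and 23.3% in either direction. With the block and the GC correction it was 0 of 8, against 1.55%. The 3 calls were thus lost once the trend with GC content was taken out. In that fit 2 of the 8 had an unadjusted p under 0.05, beside 3039 of 14071 features. In an alternative chosen after seeing the data, the block without both day 11 libraries, 4 were called, HNF4A, FOXA3, CEBPA and NR5A2, the last of them lower, against 37.0% of all features in that fit. With the block, CEBPA alone was called without both day 9 libraries, against 12.7% of features. Without both day 7 libraries edgeR with the block called 0 factors and 0 features (0%). In that fit 3 of the 8 had an unadjusted p under 0.05, beside 2968 of 14133 features. The median fold change of the 8 was 0.42 without the block, beside 0.03 over all tested features, and 0.21 with the GC correction, beside 0.00. HNF4A, FOXA2, FOXA3, CEBPA and ONECUT1 were higher in shNXN on each of the 3 days, as were 35.8% of all tested features. As these are bulk libraries, fewer cells that express a factor and less RNA of it per cell cannot be told apart.

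**Figure D3:**
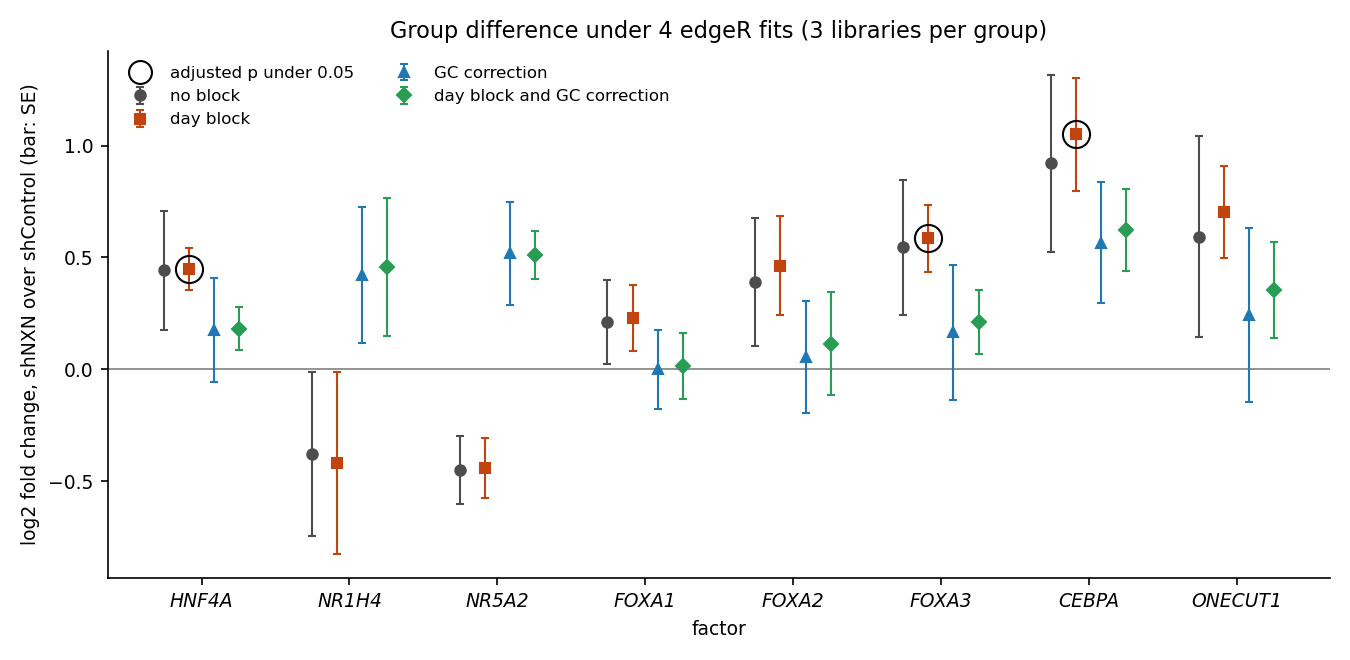
Log2 fold change of shNXN over shControl for each factor under 4 edgeR fits, with bars of 1 SE. A ring marks an adjusted p under 0.05, which was reached by HNF4A, FOXA3 and CEBPA with the day block and by no factor with the GC correction, under which NR1H4 and NR5A2 moved from below 0 to above it.

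The factors differed widely in GC content, and their order by fold change largely went with it. The longest GENCODE 29 transcript had a GC content of 65.9% for CEBPA, 60.8% for FOXA3, 58.2% for FOXA2, 58.1% for ONECUT1, 52.8% for HNF4A, 51.3% for FOXA1, 40.6% for NR1H4 and 40.0% for NR5A2, beside a median of 48.4% over all tested features. The tested features within 2 percentage points of FOXA2 had a median fold change of 0.35, and those of FOXA1 one of 0.21, close to the 0.39 and 0.21 of the genes themselves. CEBPA at 0.92 stood above its neighbours, whose median was 0.36, HNF4A at 0.44 above 0.26, and FOXA3 at 0.55 above 0.36. NR1H4 at -0.38 and NR5A2 at -0.45 stood above medians of -0.78 and -0.88. In single libraries the deviation of a feature from its mean rose with GC content on days 7 and 9 of shNXN (rho 0.71 and 0.75) and fell with it in shControl (-0.62, -0.37 and -0.71 on days 7, 9 and 11), while the day 11 library of shNXN was near level (0.09).

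**Figure D4:**
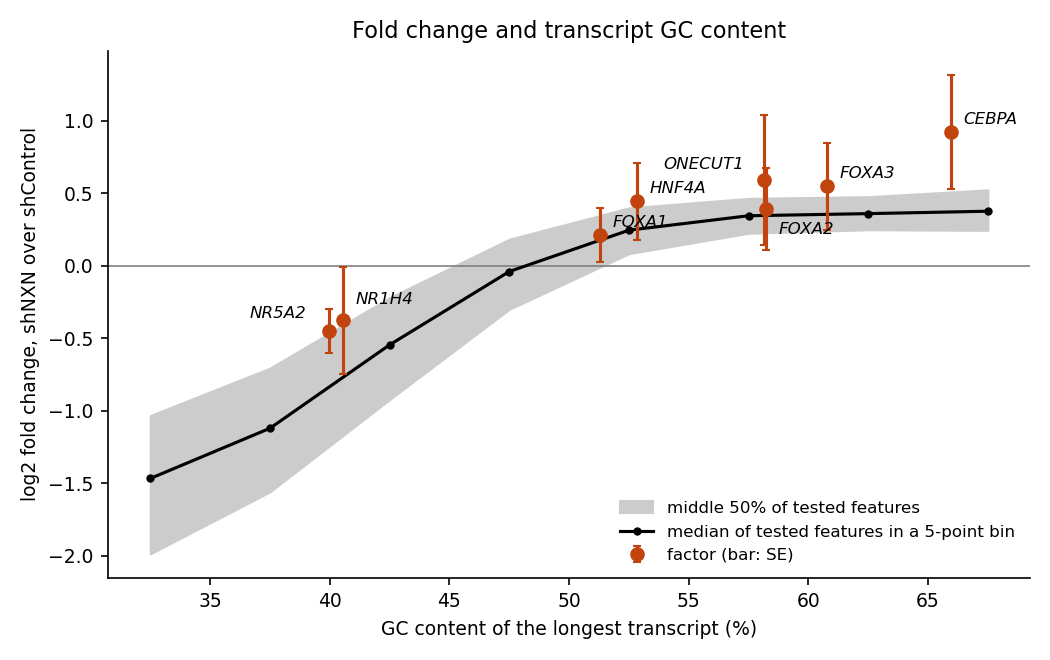
Log2 fold change of each factor (red, bar 1 SE) against the GC content of its longest transcript, over the median (black line) and the middle 50% (grey band) of all tested features in bins of 5 percentage points. The features at low GC content lie below 0 and those above 50% lie above it, and the 8 factors follow the same course, with CEBPA, ONECUT1, FOXA3, HNF4A, NR1H4 and NR5A2 above the median of features of like GC content.

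Between days, 4 of the 8 factors were lowest on day 11 in both groups, HNF4A, FOXA2, CEBPA and ONECUT1, as were 23.3% of all tested features. In edgeR's quasi-likelihood test over the 3 days, with the group as a term, 0 of the 8 passed, as 0 of 14071 tested features (0%) did, with 3006 features at an unadjusted p under 0.05. At an unadjusted p under 0.05, 4 factors passed, HNF4A, FOXA3, CEBPA and ONECUT1. The likelihood ratio test of DESeq2 called the same 4 among 1378 features (9.79%), at adjusted p values of 0.00111 for ONECUT1, 0.000398 for HNF4A, 0.017 for CEBPA and 0.0393 for FOXA3. ONECUT1 had a day 11 to day 7 difference of -1.29 on the log2 scale (SE 0.25), with an adjusted p of 0.151 in edgeR's test over the days. The same difference was -0.40 for HNF4A (SE 0.11), -0.57 for CEBPA (SE 0.31), -0.59 for FOXA2 (SE 0.27) and 0.65 for FOXA3 (SE 0.18), at adjusted p values of 0.183 to 0.340 for this difference in edgeR. The day 11 to day 9 difference was -0.80 for HNF4A (SE 0.11), -1.08 for CEBPA (SE 0.31) and -1.11 for ONECUT1 (SE 0.25). It was -0.57 for FOXA2 (SE 0.27) and -0.18 for FOXA3 (SE 0.18). Adjusted p values for it ran from 0.0766 for HNF4A to 0.553 for FOXA3 in edgeR's quasi-likelihood test. With the GC correction the day 11 to day 7 difference was -0.32 for HNF4A, -0.23 for CEBPA, -0.44 for FOXA2, 0.85 for FOXA3 and -1.14 for ONECUT1. That of NR5A2 moved from -0.20 to -0.58. The corrected edgeR fit called 0 of the 8 and 28 features. At an unadjusted p under 0.05 it had 5 of the 8, NR5A2 among them, beside 2279 features. Without the shControl library of day 11 edgeR called the 4 factors among 1595 features (11.1%), and without the shNXN library of day 11 it called FOXA2, CEBPA and ONECUT1 among 546 (3.80%). The calls in both fits came from the test over the 3 days, not from day 11 against day 7 alone. The day 11 to day 7 difference of CEBPA was -0.13 in the first of these fits and -1.16 in the second. That of FOXA2 was -0.24 and -1.07, and that of FOXA3 0.39 and 0.84. No difference between the groups in the change with day was called: in edgeR's test of the difference in slope 0 of the 8 and 0 of all tested features (0%) passed, with 0 factors and 152 features at an unadjusted p under 0.05, and DESeq2 called 4 features and 0 factors. The slope differences ran from -0.13 per day for FOXA3 to 0.28 per day for CEBPA on the log2 scale.

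HNF4A, CEBPA, ONECUT1 and FOXA2 had similar profiles over the libraries, as did many features outside the factors. The log2 CPM of HNF4A correlated with that of CEBPA at Pearson's r of 0.92, with ONECUT1 at 0.84, with FOXA2 at 0.81, with FOXA1 and FOXA3 at 0.46, with NR5A2 at -0.37 and with NR1H4 at -0.41, over 6 libraries. Both genes of a pair were read in the same libraries, so differences of group, day and depth between libraries enter both. The closest pair among the factors was FOXA2 and ONECUT1, at 0.95. These values are a description, and 959 of 12291 features exceeded 0.9 with HNF4A. By correlation with HNF4A, CEBPA ranked 714, ONECUT1 1606 and FOXA2 1989 of the 12291. The 5 named features closest to it, at 0.995 to 0.997, were CAPN1, a calpain protease, C11orf68, HIRA, a histone chaperone, ERGIC1, a protein of the early secretory pathway, and SCAP, the escort protein of the sterol response. CAPN1 was measured at 235, 263 and 195 CPM in shControl and at 267, 316 and 231 CPM in shNXN, a narrower range than that of HNF4A.

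Known targets of the factors were counted by list. Beside the list counts here and below, edgeR called 3.39% of all tested features without the block and 23.3% with the day block. It called 1.55% with the block and the GC correction and 31.8% without both day 11 libraries, and DESeq2 called 23.5%. Of 16 tested targets of HNF4A, 0 were called without the block by edgeR, 4 passed an unadjusted p under 0.05, and DESeq2 called 1 higher, SERPINA1, and 1 lower. With the day block 2 were higher, among them APOC2, an apolipoprotein (0.52, adjusted p = 0.0345 in edgeR), and 1 was lower. With the block and the GC correction 0 were called, with a median of 0.00, and without both day 11 libraries 2 were higher and 3 lower. The most abundant target, APOA2, was measured at 2079, 2035 and 1479 CPM in shControl and at 2179, 2478 and 1790 CPM in shNXN (0.21, adjusted p = 0.451). The median fold change of the 16 was 0.15, beside 0.03 over all tested features.

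Of 7 tested FOXA targets and 4 tested CEBPA targets, 0 were called by edgeR without the block, with 2 and 1 at an unadjusted p under 0.05. DESeq2 called SERPINA1, the antiprotease of plasma, higher in both lists. ALB, serum albumin, stands in both lists and was measured at 9566, 13655 and 6955 CPM in shControl and 1420, 683 and 7250 CPM in shNXN (-1.69, SE 0.81, edgeR's quasi-likelihood test, adjusted p = 0.186). The shNXN libraries of days 7 and 9 were far below shControl and that of day 11 was level with it. Without both day 11 libraries ALB, AFP, the fetal albumin relative, and CPS1, the first enzyme of the urea cycle, were called lower, all 3 in the FOXA list and ALB and CPS1 in the CEBPA list. IGFBP1, an insulin-like growth factor binding protein, was called with the day block (1.35, adjusted p = 0.023), from 29.8, 7.38 and 39.2 CPM in shControl to 79.2, 27.2 and 68.4 CPM in shNXN, and was not called with the block and the GC correction (1.18, adjusted p = 0.0701). The medians of the lists were -0.38 for FOXA targets and -0.69 for CEBPA targets, and -0.02 and -0.13 with the block and the GC correction, where 0 of either list were called by edgeR, with 1 and 0 at an unadjusted p under 0.05.

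Of 14 tested NR1H4 targets, BAAT was called lower, and it remained so with the day block and with the block and the GC correction, but not with the GC correction alone (-1.63, adjusted p = 0.0705). BAAT, which conjugates bile acids with glycine or taurine, was measured at 35.9, 30.2 and 23.9 CPM in shControl and at 4.69, 4.29 and 8.06 CPM in shNXN. Its fold change was -2.40 (SE 0.31, edgeR's quasi-likelihood test, adjusted p = 0.0395) and -1.60 with the block and the GC correction (adjusted p = 0.0445). NR0B2 (SHP), the classic NR1H4 target and corepressor of NR5A2, was measured at 42.7, 46.6 and 51.2 CPM in shControl and 79.3, 56.3 and 57.1 CPM in shNXN (0.45, adjusted p = 0.142). With the day block SDC1 and APOC2 were higher, and neither was with the block and the GC correction. DESeq2 called 1 of the 14 higher and 2 lower. Without both day 11 libraries edgeR called 3 higher and 4 lower. NR0B2, which also stands in the NR5A2 list, was called higher in that fit. The median of the 14 was -0.04, and 0.10 with the block and the GC correction. Of 3 tested NR5A2 targets 0 were called, with 2 at an unadjusted p under 0.05, and DESeq2 called SCARB1, the HDL receptor, higher, at 153, 160 and 156 CPM in shControl and 195, 181 and 200 CPM in shNXN (0.30, adjusted p = 0.129 in edgeR, and -0.02 with the block and the GC correction). CYP7A1 and CYP8B1, the bile acid synthesis genes that NR5A2 serves, had 0 counts in all 6 libraries. Of 3 tested ONECUT1 targets 0 were called by edgeR or DESeq2 and 0 had an unadjusted p under 0.05, with TTR, transthyretin, at -0.12 (adjusted p = 0.790). The medians of these lists were 0.30 and -0.12, and -0.02 and 0.11 with the block and the GC correction. The ONECUT1 list holds FOXA2, itself one of the factors followed here, and the 0.11 is the value of FOXA2.

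**Figure D5:**
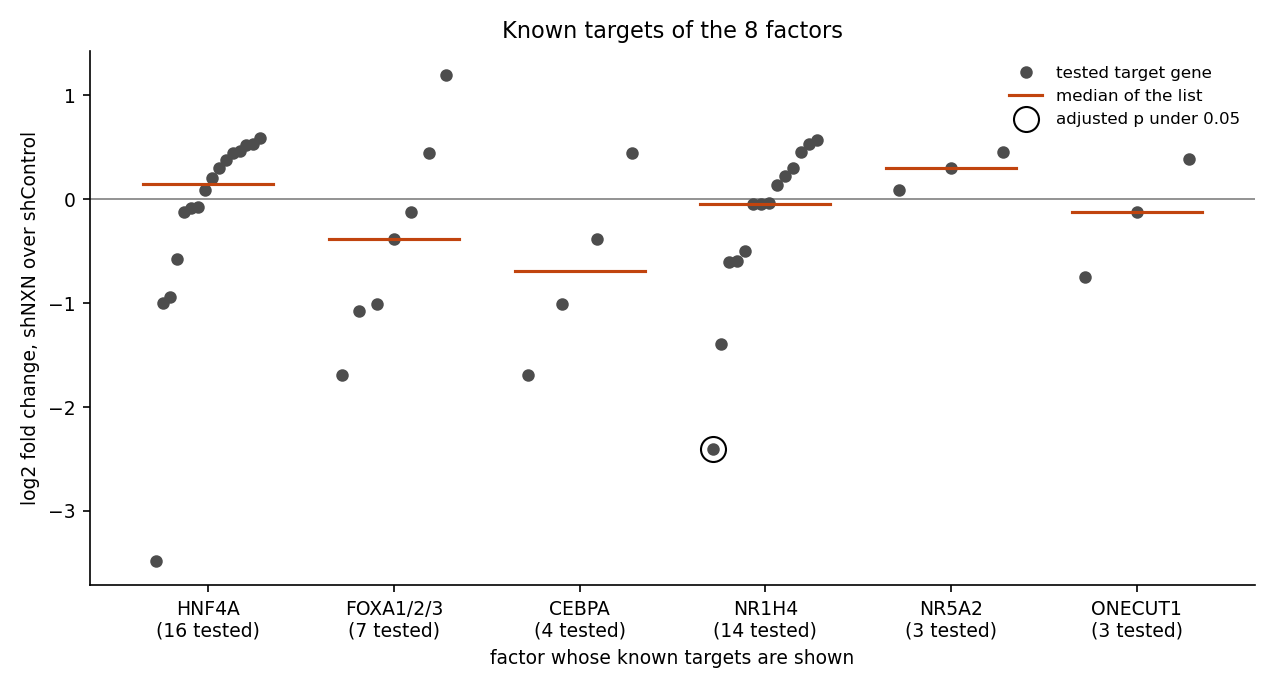
Log2 fold change of shNXN over shControl, without the block, for the tested known targets of each factor, with the median of the list as a red line. BAAT in the NR1H4 list is the only ringed point (adjusted p = 0.0395), and the medians run from -0.69 for CEBPA targets to 0.30 for NR5A2 targets. The ONECUT1 list includes FOXA2, itself one of the factors.

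With day, most HNF4A targets had lower values on day 11 than on day 7, as did HNF4A and most of the wider list of liver transcription factors. Of the 16, 15 had a negative day 11 to day 7 difference, with a median of -0.52 beside 0.07 over all tested features. edgeR called 0 of them, with 8 at an unadjusted p under 0.05. DESeq2 called 6, against 9.79% of all tested features, all 6 lower on day 11, F7, AGT, LIPC and TTR among them. F7, coagulation factor VII, was measured at 88.9, 104 and 23.4 CPM in shControl and at 105, 124 and 36.4 CPM in shNXN (-1.72, adjusted p = 0.0867 in edgeR). Of the wider list of 40 tested liver transcription factors, 30 had a negative day 11 to day 7 difference and 10 a positive one, with a median of -0.48. edgeR called 0 of the 40, with 12 at an unadjusted p under 0.05. DESeq2 called 10, against the same 9.79%, all lower on day 11, led by KLF6, MLXIPL, GATA6 and KLF15. MLXIPL (ChREBP), the carbohydrate response factor, was measured at 24.7, 26.2 and 9.14 CPM in shControl and at 35.8, 42.0 and 13.9 CPM in shNXN.

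In the same wider list of 40, edgeR called 1 between the groups, ONECUT2, the paralog of ONECUT1, which was lower in shNXN. ONECUT2 was measured at 68.0, 71.1 and 71.1 CPM in shControl and at 42.9, 40.5 and 45.6 CPM in shNXN (-0.70, SE 0.13, edgeR's quasi-likelihood test, adjusted p = 0.0473), and at 0.06 with the block and the GC correction. ONECUT1 and its paralog thus stood on opposite sides of 0 without that correction, and this difference between them was not tested. With the day block 8 of the 40 were called, against 23.3% of all tested features, 3 higher and 5 lower. The lower ones held NR3C1, the glucocorticoid receptor, RORA, a retinoid-related orphan receptor, and PROX1, a homeodomain factor of hepatoblast migration. With the block and the GC correction 1 was called, XBP1, the factor of the unfolded protein response, at 0.77 (adjusted p = 0.0391), beside -0.05 without either. The median of the 40 was 0.29 without the block and 0.15 with the block and the GC correction.

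Of 23 cofactors and corepressors, SIRT1, a deacetylase that acts on nuclear receptors and FOXA proteins, was called lower, from 29.5 ± 3.31 CPM in shControl to 10.1 ± 3.78 CPM in shNXN (SD, n = 3 libraries each) (-1.55, SE 0.29, edgeR's quasi-likelihood test, adjusted p = 0.0466, and -0.72 with the block and the GC correction, adjusted p = 0.0996). With the day block 4 were higher, CARM1, an arginine methyltransferase, among them, and 3 were lower, among them PPARGC1A (PGC-1 alpha), the coactivator of HNF4A. That fit called 23.3% of all tested features. Without the block 13 of the 23 had an unadjusted p under 0.05 in edgeR. DESeq2 called 4 of them higher and 4 lower, against 23.5% of all tested features. Without both day 11 libraries edgeR called 5 higher and 5 lower, against 31.8% of features. With the block and the GC correction 0 of the 23 were called by edgeR, with 6 at an unadjusted p under 0.05. Of the 10 hepatocyte markers 0 were called by edgeR, with 4 at an unadjusted p under 0.05, and DESeq2 called SERPINA1 higher and APOH lower. Without both day 11 libraries edgeR called 5 of the 10 lower, APOB, ALB, AFP, APOH and FGB, and 0 higher, with a median of -0.53. That fit called 4519 of 14201 features, 3385 of them lower and 1134 higher. With the block and the GC correction edgeR called 0 of the 10, with 1 at an unadjusted p under 0.05 and a median of -0.10. Of 5 tested biliary markers 0 were called, with 1 at an unadjusted p under 0.05, SOX9, which DESeq2 and the day block called higher (0.49 without and 0.51 with the block, adjusted p = 0.0366 in edgeR with the block), and which was not called with the block and the GC correction (0.31, adjusted p = 0.218). Without both day 11 libraries edgeR called 2 of the 5 higher, SOX9 and KRT19, and 0 lower. Of 4 tested EMT transcription factors 0 were called, with 2 at an unadjusted p under 0.05, and DESeq2 called SNAI2 lower. With the day block ZEB1 and SNAI2 were lower and TWIST1 higher, and all 3 calls were lost with the block and the GC correction, which left ZEB1 at -0.14, SNAI2 at -0.32 and TWIST1 at 1.51. SNAI1, which encodes Snail, was measured at 2.56, 3.63 and 3.25 CPM in shControl and at 5.29, 4.41 and 4.25 CPM in shNXN (0.56, adjusted p = 0.179). Of 2 tested stellate and fibroblast markers 0 were called by edgeR or DESeq2 and 0 had an unadjusted p under 0.05, and of 3 tested immune markers 0 were called by edgeR without the block, with 1 at an unadjusted p under 0.05, and DESeq2 called CD68 higher. CD68 was also called without both day 11 libraries, and LYZ was called higher with the block and the GC correction (1.36, adjusted p = 0.0391).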

How the data were processed

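RNA of Hep-3B cells was sequenced in 6 libraries, 3 per group. The authors deposited an estimated count per feature and library, with decimals for 15.1% to 18.8% of features, and an FPKM table of the same features. The aligner, counting program and annotation are not given in the sources used here. The submitters' processing notes name the mouse builds GRCm38 and mm10, although the identifiers are human Ensembl identifiers (20314) and assembled loci (3092), so no coordinate was taken from the files. Estimated counts can share out reads between alike sequences, so paralogs and overlapping genes can be uncertain, and strand use is not stated. The counts of the factors, the FOXA genes among them, were whole numbers in every library. Those of NXN, the target of the shRNA, had decimals, from 613.09 to 2754.33.

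Symbols came from a name table (19433 matched). Rounded counts were tested with edgeR 4.0.16 in R 4.3.3 (TMM, filterByExpr, quasi-likelihood test, Benjamini-Hochberg adjustment over all tested features, adjusted p under 0.05), and the SE is the log2 fold change divided by the square root of F. CPM are TMM-scaled. Alternatives used DESeq2 1.42.0 and limma 3.58.1 on log2(FPKM + 1) or log2(FPKM + 0.1), which understates changes of low genes, other factors and filters, and a GC correction, a natural spline with 5 degrees of freedom per library on the GC content of the longest GENCODE 29 transcript (known for 90.5% of tested features), which removes any group difference that follows GC content. Scripts were tested on simulated counts that had no trend with GC content. The day block and the GC correction were not part of that run. Intervals and depth cover counting error only: the smallest count, 70 for NR1H4, has an exact 95% Poisson interval of 54.6 to 88.4.

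The replicate number follows the day, which the labels give, so the day served as a block. Deviations from group means correlated between same-day libraries at 0.30, 0.30 and 0.45, and at -0.36 to 0.15 between others. No 2 libraries of a group agreed within sampling noise (chi-square per feature 20.1 to 77.8). 0 columns lacked a sample.

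The factors, the 14 further gene lists and the tests were chosen with earlier results of these data known. From each list up to 4 called genes with the smallest p were named, or, with fewer than 2 called, up to 2 with the highest mean FPKM, and the 5 features closest to HNF4A with a mean of at least 1 CPM. Other genes in the text were chosen after their values were seen. RefSeq promoter windows were found for 7 of the 8 factors. FOXA2 had no entry. Values of some called genes are not reported here.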

Additional observations from a re-analysis of the deposited data

Results flagged for a closer look

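For FOXA1 and NR1H4 the difference between shNXN and shControl pointed in opposite directions on different days, each day with 1 library per group. This contrast between days was not tested beyond the slope, which passed for neither gene. FOXA1 differed by -0.0634 on the log2 scale on day 7, by 0.56 on day 9 and by 0.19 on day 11. For NR1H4, at 70 to 200 counts a library, the day 7 difference was -0.27, the day 9 difference -1.52 and the day 11 difference 0.49.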

How the results depend on the processing

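The tests rest on 3 libraries a group, 1 per day, so day and replicate cannot be told apart, and NR1H4 is limited further by its depth. For the group difference, HNF4A, FOXA2, FOXA3, CEBPA and ONECUT1 kept their direction under all 23 alternatives, which held 0.18 to 0.70 for HNF4A and 0.57 to 1.38 for CEBPA. The causes of the changes below were not tested.

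Of the 8 factors, 1 was called without both day 11 libraries, 1 at an unadjusted p under 0.05 and 3 with the replicate block. The block with both libraries of one day left out was chosen after seeing the data and gave 4 without day 11, 1 without day 9 and 0 without day 7. Of all features, 477 were called as reported, 3311 by DESeq2, 826 with RLE factors, 929 by library size, 818 without a filter, 16 and 134 by limma with pseudocounts of 0.1 and 1, 0 by limma without a filter (4859 at an unadjusted p under 0.05), 5 with the GC correction and 4625 unadjusted. Leaving out both libraries of a day gave 4519 without day 11 and 0 without day 7 or day 9 (1308 and 2321 unadjusted). The replicate block gave 3272, 218 with the GC correction, and 5250, 1794 and 0 without day 11, day 9 or day 7. Leaving out 1 library gave 0 to 3706, the latter without the shNXN library of day 11. The block called no other factor.

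The GC correction turned FOXA1 to -0.000452, NR1H4 to 0.42 (0.46 with the block) and NR5A2 to 0.52 (0.51 with the block). NR1H4 also turned to 0.12 without both day 9 libraries, with and without the block.

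Between days, DESeq2 called 4 factors and 1378 features, and 4 factors and 3006 features passed unadjusted. The GC correction gave 28 features, no filter 302, and leaving out 1 library 0 to 4 factors and 0 to 1595 features. The day 11 to day 7 difference of NR1H4 turned to -0.35 with the GC correction, -0.0082 by library size and -0.00516 without the group term, and ran from -0.72 to 0.56 with 1 library left out.

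For the slope difference, DESeq2 called 4 features, no filter 1, an unadjusted p 152 and leaving out 1 library 0 to 12. The slope difference turned to -0.00618 for HNF4A without a filter and to -0.0225 for NR5A2 with the GC correction. With 1 library left out it ran from -0.29 to 0.33 for HNF4A, -0.15 to 0.20 for FOXA1, -0.43 to 0.10 for FOXA3, -0.30 to 0.78 for CEBPA, -0.35 to 0.72 for NR1H4 and -0.0812 to 0.45 for ONECUT1. By CPM in place of FPKM, FOXA2 and NR5A2 took places 5 and 4 in the order of levels.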
